A study of Homo sapiens with 12 samples.

Results

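The SLC25 genes encode the mitochondrial carrier family, and they were followed here in OCI-AML3, an established human acute myeloid leukaemia cell line. Members were the genes of the deposited count table whose symbol is SLC25A followed by a number and whose mean raw count over the 12 libraries was at least 10. This rule took 39 of the 48 family symbols in a table of 54628 genes. Polyadenylated RNA was sequenced as paired ends from 4 groups of cells treated for 24 h, with 3 libraries in each group. The groups were DMSO, the solvent control; ABT199 (venetoclax), an inhibitor of the survival protein BCL2; ERKi (compound 27), an inhibitor of the ERK kinases; and Comb, which received ABT199 and ERKi together. The labels give no genetic change in any group, and each result concerns this 1 line. Libraries are numbered within a group in the labels, which do not state that each came from its own culture; the spread behind every p-value is therefore that between libraries and may be technical.

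Carriers of this family sit almost all in the inner mitochondrial membrane, which is otherwise closed to most metabolites. Each moves a narrow set of substrates, commonly by exchanging one for another: ATP against ADP, phosphate with a proton, citrate against malate, aspartate against glutamate, carnitine against acylcarnitine, or vitamins, nucleotides and iron. They are encoded in the nucleus, made in the cytosol and inserted through the TIM22 pathway, and their abundance bears on oxidative phosphorylation, the export of carbon for lipid synthesis and the handling of amino acids and iron. In leukaemia cells mitochondria are also where BCL2 and its relatives act.

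The rule used counts averaged over all groups, so the levels of the members are given as a description. Closest above its threshold were SLC25A53 with a mean of 10.5 counts, SLC25A18 with 13.7 and SLC25A34 with 15. Closest below it was SLC25A41 with a mean of 5 counts, and the other 8 family genes left out (SLC25A2, SLC25A21, SLC25A27, SLC25A31, SLC25A47, SLC25A48, SLC25A51 and SLC25A52) had means of 0 to 0.667. All 39 members passed the filter on low counts. SLC25A18 reached the filter's level in 1 of the 3 DMSO libraries, 2 ABT199 libraries and all 3 libraries of ERKi and of Comb, so it passed mainly through the groups where it was high. SLC25A53 reached it in 1, 1, 2 and 3 libraries of DMSO, ABT199, ERKi and Comb.

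The 12 libraries held 19199296 to 21275065 counts assigned to genes. Levels are given as CPM, the counts scaled to a library of 1e+06 after TMM normalisation. That correction takes most genes to be level between libraries. A rise or fall in CPM is therefore relative to the bulk of the genes. DMSO replicate 1 stood apart: against the other DMSO libraries its counts gave a chi-square of 15.4 and 16.3 per degree of freedom, where all other pairs within a group gave 2.26 to 5.11. It was above both other DMSO libraries in 22 of 39 members and below both in 14, and its median distance from them was 0.22 on the log2 scale, against 0.05 to 0.13 for the other 11 libraries. All 8 markers of myeloid leukaemia cells had counts, summing to 1112 to 1192 CPM in DMSO and ABT199 and to 2040 to 2136 CPM in ERKi and Comb. Lymphoid, erythroid and epithelial markers summed to at most 1.52, 0.28 and 1.39 CPM, with MS4A1, HBB and EPCAM at 0 in every library. The 4 fibroblast markers summed to 6.04 to 33.7 CPM in DMSO, 12.1 to 23.2 in ABT199, 9.24 to 23.8 in ERKi and 1.15 to 1.52 in Comb. The part of the shift in either marker list in the carrier results was not tested.

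Per kilobase of annotated exon, SLC25A5 had the highest level of any member in DMSO, at 208 CPM per kilobase. SLC25A5 is one of the ADP/ATP carriers, which hand the ATP made in mitochondria to the rest of the cell. SLC25A3, the carrier that brings in phosphate for ATP synthesis, followed at 69.8 and the citrate carrier SLC25A1 at 46.7 CPM per kilobase. Those lengths join the exons of every annotated transcript, 8896 bases for SLC25A3 and 1500 bases for SLC25A5. Without correction for length the order was the other way, as SLC25A3 alone took 25.3% of all member CPM in DMSO and SLC25A5 12.7%. Which of these genes had more transcripts is therefore not settled. Summed over the 39 members, the level was 2453 ± 10.9 CPM in DMSO, 2487 ± 33.4 in ABT199, 1983 ± 19.6 in ERKi and 2122 ± 40 in Comb (mean ± SD, n = 3 each). The family total thus lay lower in both groups that received the ERK inhibitor, with no overlap with the other groups. Since SLC25A5 took only 8.12% of the ERKi total and 10.4% of the Comb total, part of that lower sum was this 1 gene. The remaining 37 members summed to 1522 ± 14.1, 1537 ± 7.90, 1310 ± 14.4 and 1377 ± 24.9 CPM in DMSO, ABT199, ERKi and Comb. With library totals in place of TMM scaling, the ERKi total of 2093 CPM was above that of Comb, 2056 CPM, so the order of those groups rests on the scaling. These are values for pooled cells, in which fewer cells expressing a gene and less RNA per cell cannot be told apart.

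**Figure D1:**
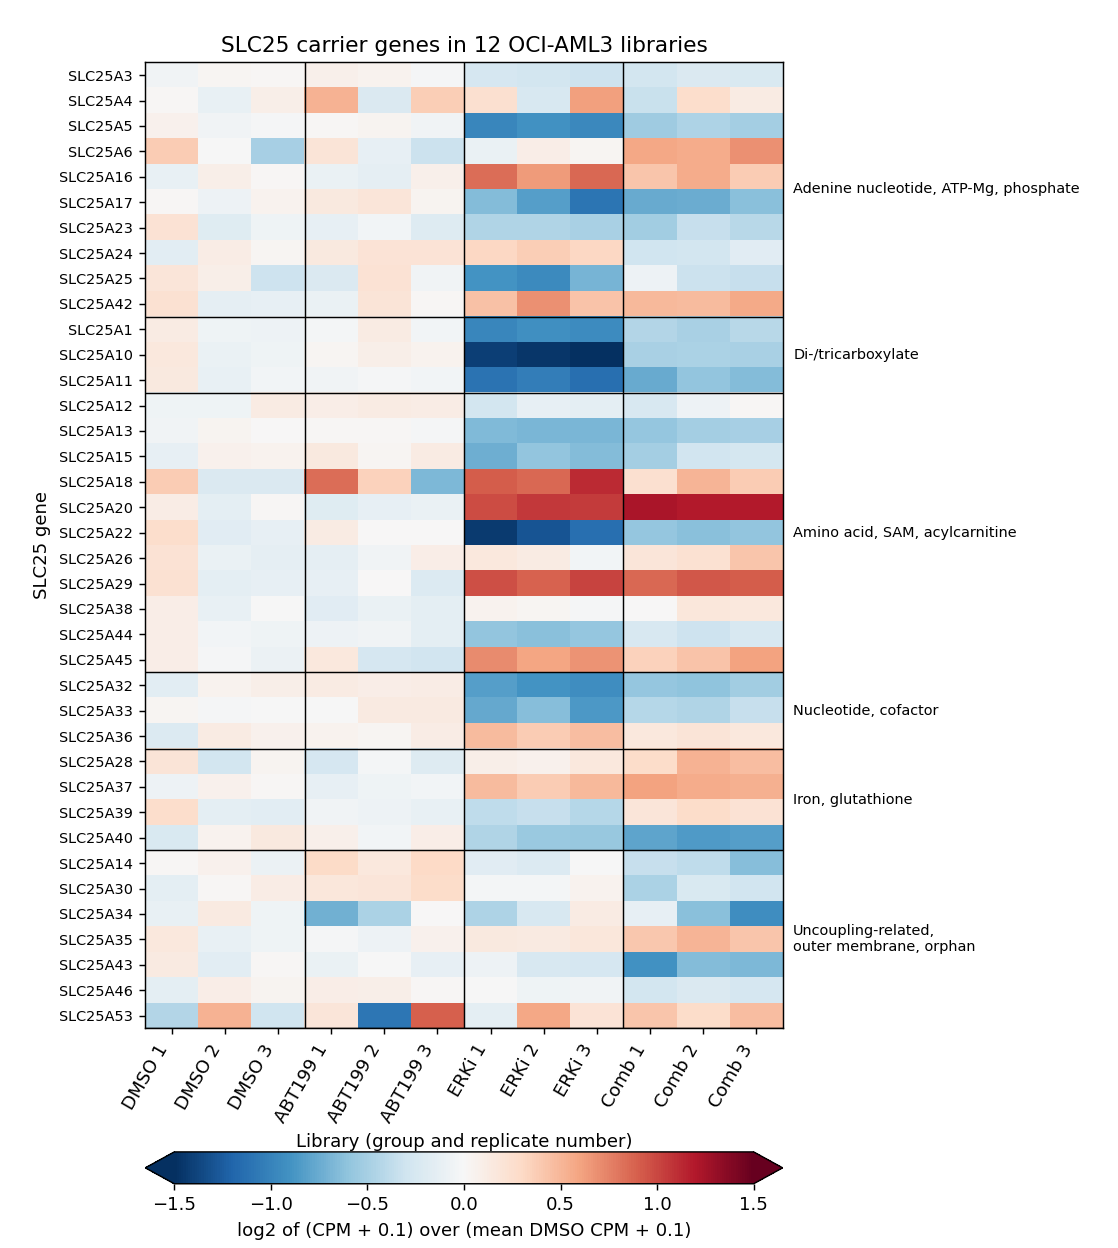
Log2 of CPM plus 0.1 for each of 38 carrier genes in each of the 12 libraries, relative to the gene's mean over the DMSO libraries, on a colour scale in log2 units; genes are grouped by the substrates carried. The DMSO and ABT199 columns look alike, apart from DMSO replicate 1, while the ERKi and Comb columns hold blocks of lower values, deepest at SLC25A10 with ERKi.

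No carrier passed the threshold with venetoclax alone. At an adjusted p under 0.05 by edgeR's quasi-likelihood test with Benjamini-Hochberg adjustment over 15173 genes, 0 of 39 members were called between ABT199 and DMSO, where 0.402% of all genes tested were called, 0.0198% higher and 0.382% lower. DESeq2 and limma-voom also called 0 members. At an unadjusted p under 0.05 there were 3 members, beside 9.11% of all genes. Among them were SLC25A24, an ATP-Mg/phosphate carrier, with a log2 change of 0.18 (SE 0.061, adjusted p = 0.385), and SLC25A30, a relative of the uncoupling proteins, with 0.21 (SE 0.077, adjusted p = 0.434). The intervals bound how large a missed change could be. For 33 of 39 members the 95% confidence interval of the log2 fold change lay within 0.5 of 0, which is a 1.41-fold change either way, and for 36 it lay within 1. The 3 members whose interval went further, SLC25A18, SLC25A34 and SLC25A53, were those with the fewest counts. For SLC25A5 the interval was -0.10 to 0.11 and for SLC25A3 -0.05 to 0.13.

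With the ERK inhibitor the ADP/ATP carrier SLC25A5, the phosphate carrier SLC25A3 and all 3 di- and tricarboxylate carriers fell, whereas the acylcarnitine carrier SLC25A20 and the iron carrier SLC25A37 rose. Between ERKi and DMSO, 26 of 39 members were called, 9 higher and 17 lower. Of all genes tested, 69.7% were called in this comparison, 34.5% higher and 35.2% lower, so the count of members lay near the background. The median log2 fold change of the members was -0.12, beside 0.01 for all genes. Member values spanned -1.48 to 1.10. Against the same DMSO libraries, Comb gave 31 members called, 12 higher and 19 lower, where 63.8% of all genes were called, 30.4% higher and 33.4% lower. The member median was -0.24, beside -0.01 over all genes, and the values spanned -0.82 to 1.20. Without DMSO replicate 1, the calls were 10 higher and 18 lower with ERKi and 13 higher and 19 lower with Comb. These comparisons share the DMSO libraries, so their values stand side by side for most members below and are not counted as separate evidence.

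**Figure D2:**
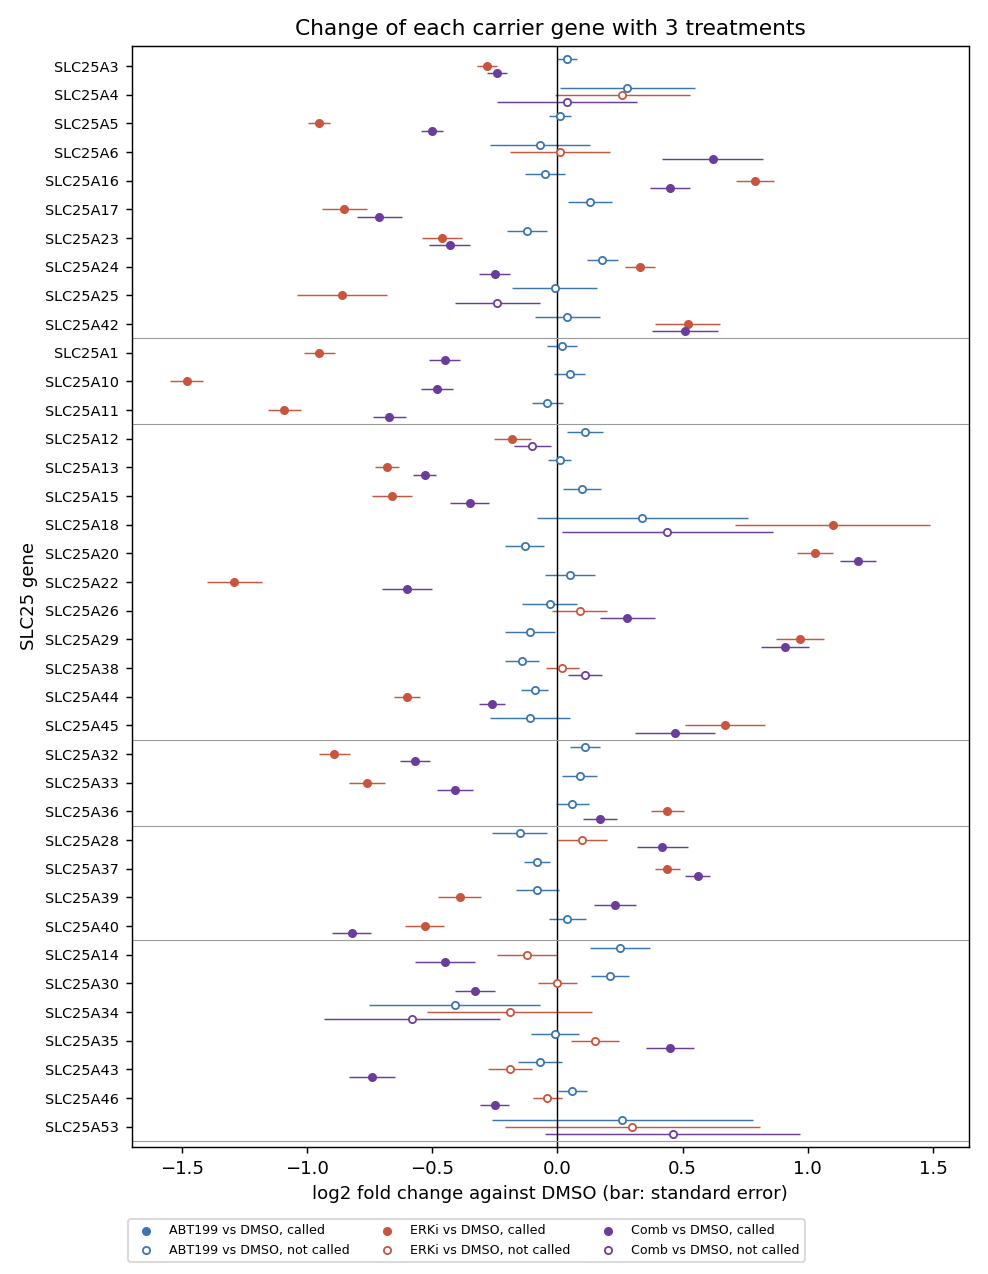
Log2 fold change of each of 38 carrier genes against DMSO with ABT199, ERKi and Comb; bars are standard errors, filled points were called at an adjusted p under 0.05, and grey lines separate the substrate groups. The ABT199 points are all open and near 0, the lowest ERKi point is SLC25A10 at -1.48, and the Comb points of the dicarboxylate carriers lie between the ERKi points and 0.

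All 3 di- and tricarboxylate carriers measured fell with ERKi, where 35.2% of all genes were called lower. Their median log2 fold change was -1.09, beside 0.01 for all genes. SLC25A10, which exchanges malate and succinate for phosphate, lies on chromosome 17 from 81712284 to 81721012 (RefSeq, GRCh38.p14). Its level was 65.7, 55.2 and 56.3 CPM in the DMSO libraries and 60.2, 62.6 and 61.1 CPM with ABT199. With ERKi it was 22.2, 21.4 and 19.98 CPM, and with Comb 42, 42.6 and 42.2 CPM. The ERKi and Comb libraries lay below every DMSO and ABT199 library, and every Comb library was above every ERKi library. The log2 change was -1.48 (SE 0.067, adjusted p = 5.35e-12) for ERKi against DMSO and -0.48 (SE 0.064, adjusted p = 4.87e-06) for Comb against DMSO. It was the member that fell furthest with ERKi. For SLC25A10, 46.6% of the annotated exon bases overlap the gene model AC139530.2, which was not analysed here.

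SLC25A11 exchanges 2-oxoglutarate for malate and with the aspartate-glutamate carriers forms the malate-aspartate shuttle, which brings reducing power from the cytosol into mitochondria. It was at 74.7, 62.2 and 65.4 CPM in DMSO, 65.1, 66.4 and 65.6 with ABT199, 31.1, 32.8 and 30.8 with ERKi and 39.8, 44.5 and 42.9 with Comb. No ERKi or Comb library reached the lowest DMSO library. The log2 change was -1.09 (SE 0.066, adjusted p = 2.08e-10) with ERKi and -0.67 (SE 0.065, adjusted p = 1.32e-07) with Comb. SLC25A1 exports citrate, the carbon source for fatty acid and sterol synthesis. Its libraries held 107, 93.4 and 93.2 CPM in DMSO and 96.1, 106 and 94.8 with ABT199. They held 49.5, 51.8 and 50.9 CPM with ERKi and 71.96, 69.6 and 73.2 with Comb, so that the groups with the ERK inhibitor again did not overlap the others. SLC25A1 fell, at log2 changes of -0.95 (SE 0.062, adjusted p = 6e-10) with ERKi and -0.45 (SE 0.061, adjusted p = 6.82e-06) with Comb.

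Among the 10 carriers of adenine nucleotides, ATP-Mg, coenzyme A and phosphate, 3 rose and 5 fell with ERKi. Of all genes tested, 34.5% were called higher and 35.2% lower. SLC25A5, on chromosome X from 119468444 to 119471396, was at 325, 300.2 and 308 CPM in the DMSO libraries and 316, 320.1 and 301 CPM with ABT199. It was at 158, 165 and 159.6 CPM with ERKi and 215, 226 and 218 CPM with Comb. With ERKi the level fell by 48.3%, and the Comb libraries lay between those of DMSO and ERKi. Its log2 change was -0.95 (SE 0.044, adjusted p = 7.12e-12) with ERKi and -0.50 (SE 0.044, adjusted p = 3.54e-08) with Comb. SLC25A3 moved less: it was at 599.7, 631 and 631 CPM in DMSO and 655, 645 and 613 with ABT199. The phosphate carrier then held 522, 514 and 501 CPM with ERKi and 513, 534 and 529 with Comb, below every DMSO library. The fall was -0.28 (SE 0.04, adjusted p = 9.51e-06) on the log2 scale with ERKi and -0.24 (SE 0.04, adjusted p = 5.44e-05) with Comb.

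The other ADP/ATP carriers were weakly measured. SLC25A4, the form of heart and skeletal muscle, was at 1.11 to 2.24 CPM over the 12 libraries and was called in none of the comparisons. SLC25A6 lies in the pseudoautosomal region of chromosome X, from 1386152 to 1392113, and has a near-identical copy on Y, and how reads that map to both were counted is not stated. Its 54 to 114 counts per library are therefore uncertain. GTPBP6 and ASMTL, other genes of that region, ranged from 9 to 231 and from 10 to 272 counts over the libraries. SLC25A6 had a log2 change of 0.01 (adjusted p = 0.958) with ERKi and 0.62 (adjusted p = 0.0115) with Comb, and the Comb call was lost without DMSO replicate 3, at an adjusted p of 0.0683.

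The calcium-regulated ATP-Mg/phosphate carriers, which set the adenine nucleotide content of mitochondria, moved in unlike directions with ERKi. SLC25A24 was at 68.95, 82.8 and 78.4 CPM in DMSO, 84.8, 88.5 and 88.1 with ABT199, 95.4, 98.9 and 95.01 with ERKi and 62.4, 63.6 and 68.3 with Comb. It was highest with ERKi alone and lowest with Comb, and these did not overlap. Its log2 change was 0.33 (adjusted p = 0.000141) with ERKi and -0.25 (adjusted p = 0.00261) with Comb. SLC25A23 fell with ERKi, at -0.46, and with Comb, at -0.43. SLC25A25 fell with ERKi, at -0.86, while with Comb its -0.24 (adjusted p = 0.228) missed the threshold. Antisense and neighbouring models, SLC25A25-AS1 and NAIF1, overlap 16.2% of the SLC25A25 exon bases, and without stated strand use the reads of a gene and its antisense partner cannot be told apart. SLC25A24P1, a pseudogene of SLC25A24, had a mean of 114 counts, and sharing of reads between the 2 was not tested. The coenzyme A carrier SLC25A42 and SLC25A16, which has been linked to the same cofactor, rose with ERKi, by log2 fold changes of 0.52 and 0.79, and with Comb, by 0.51 and 0.45. SLC25A17, the family member of peroxisomes, fell, at -0.85 with ERKi and -0.71 with Comb.

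**Figure D3:**
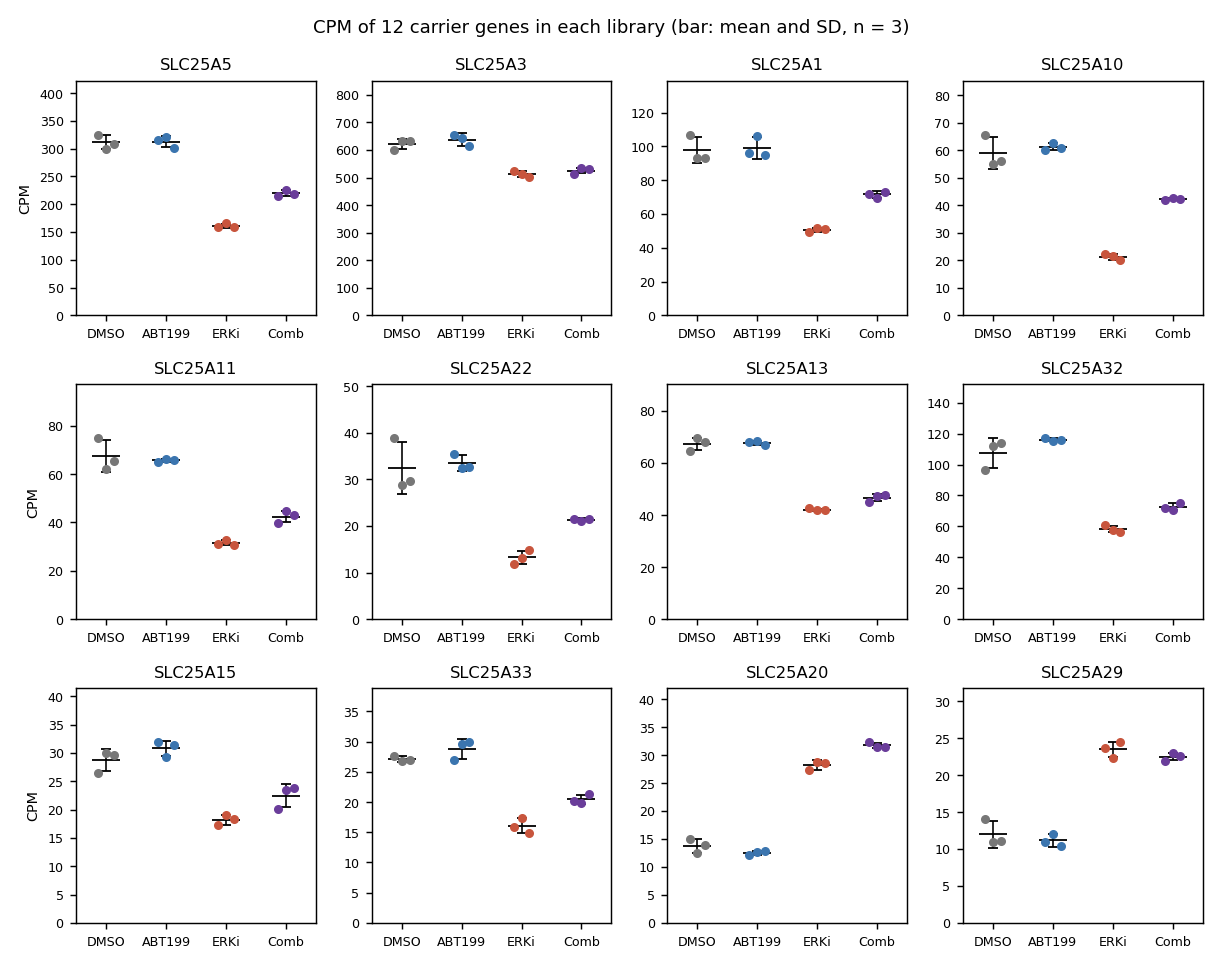
CPM in each library for 12 carrier genes, 1 panel per gene with its own axis from 0; points are libraries and bars the mean and SD of 3. SLC25A10, SLC25A22, SLC25A11, SLC25A1 and SLC25A5 are lowest with ERKi and intermediate with Comb, whereas SLC25A20 and SLC25A29 are higher in both groups than in DMSO.

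Of 11 carriers of amino acids, S-adenosylmethionine and acylcarnitines, 4 rose and 5 fell with ERKi, beside 34.5% of all genes higher and 35.2% lower. SLC25A20, the carnitine-acylcarnitine carrier that admits fatty acids for oxidation, lies on chromosome 3 from 48856926 to 48898882. It was at 14.9, 12.5 and 13.99 CPM in DMSO and 12.2, 12.7 and 12.9 with ABT199. It reached 27.2, 28.8 and 28.6 CPM with ERKi and 32.3, 31.5 and 31.5 with Comb. Every library with the ERK inhibitor was above every library without it. The log2 change was 1.03 (SE 0.072, adjusted p = 1.3e-09) with ERKi and 1.20 (SE 0.072, adjusted p = 3.32e-10) with Comb, the highest value of any member with Comb. SLC25A29, a carrier of basic amino acids, was also higher in both groups with the ERK inhibitor, with 14.1, 10.9 and 11.1 CPM in DMSO and 10.98, 12.1 and 10.4 with ABT199. Its libraries held 23.6, 22.4 and 24.4 CPM with ERKi and 21.96, 22.97 and 22.6 with Comb, again without overlap. Its log2 change was 0.97 (SE 0.095, adjusted p = 1.05e-07) with ERKi and 0.91 (SE 0.096, adjusted p = 3.67e-07) with Comb. SLC25A45 also rose, by 0.67 with ERKi and 0.47 with Comb. The Comb call of SLC25A45 was lost without DMSO replicate 3 (adjusted p = 0.0594) or Comb replicate 3 (adjusted p = 0.0734).

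The glutamate carriers SLC25A22 and SLC25A18 did not move alike. SLC25A22 was at 38.8, 28.7 and 29.7 CPM in DMSO, where replicate 1 was the high value, and 35.4, 32.5 and 32.6 with ABT199. It held 11.9, 13.2 and 14.8 CPM with ERKi and 21.6, 21.02 and 21.5 with Comb. Its log2 change was -1.29 (SE 0.11, adjusted p = 1.07e-08) with ERKi and -0.60 (SE 0.1, adjusted p = 7.12e-05) with Comb, and the groups with the ERK inhibitor did not overlap the others. SLC25A18, at 0.38 to 0.63 CPM in DMSO and 0.92 to 1.12 CPM with ERKi, had a log2 change of 1.10 (SE 0.39, adjusted p = 0.0188). That call was lost without DMSO replicate 2, DMSO replicate 3 or ERKi replicate 3, and the gene passed the filter mainly where it was high.

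Both aspartate-glutamate carriers fell with ERKi. SLC25A13 was at 64.8, 69.4 and 67.9 CPM in DMSO and 42.5, 41.8 and 41.9 CPM with ERKi, without overlap, a log2 change of -0.68 (SE 0.047, adjusted p = 1.26e-09). SLC25A12 was at 34.5, 34.5 and 39.3 CPM and 29.9, 33.2 and 32.5 CPM in those groups, a log2 change of -0.18 (SE 0.073, adjusted p = 0.039) that was lost in 8 of 20 alternative settings, library totals and DESeq2 included. With Comb, SLC25A13 held 45.2, 47.4 and 47.6 CPM and was called lower than in DMSO. SLC25A12 held 30.4, 34.1 and 36.5 CPM with Comb and was not called against DMSO. The ornithine carrier of the urea cycle, SLC25A15, fell, at -0.66 with ERKi and -0.35 with Comb, and the branched-chain amino acid carrier SLC25A44 fell, at -0.60 and -0.26. SLC25A26, which brings S-adenosylmethionine into mitochondria, and SLC25A38, a glycine carrier needed for haem synthesis, were not called with ERKi, at 0.09 (adjusted p = 0.472) and 0.02 (adjusted p = 0.796). With Comb, SLC25A38 had 0.11 (adjusted p = 0.158) and SLC25A26 0.28 (adjusted p = 0.0283). The SLC25A26 call was lost in 3 of 20 alternatives, with adjusted p up to 0.153. The gene model LRIG1 overlaps 15.5% of the SLC25A26 exon bases and rose with Comb, by 0.63 (adjusted p = 2.87e-07). Sharing of reads between SLC25A26 and LRIG1 was not tested.

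Of 4 carriers of nucleotides and vitamin cofactors, 1 rose and 2 fell with ERKi, beside 34.5% of all genes higher and 35.2% lower. The pyrimidine nucleotide carriers SLC25A33 and SLC25A36, which supply mitochondria with the building blocks of their own DNA and RNA, moved in opposite directions with ERKi. SLC25A33 was at 27.6, 26.8 and 26.9 CPM in DMSO and 26.9, 29.7 and 29.9 with ABT199, against 15.9, 17.4 and 14.9 with ERKi and 20.1, 19.9 and 21.3 with Comb. SLC25A36 was at 92.2, 116 and 111 CPM in DMSO and 111, 108 and 115 with ABT199, against 149, 139 and 147 with ERKi and 119, 122 and 119 with Comb. The ERKi libraries were below all DMSO libraries for the first gene and above all of them for the second. The log2 fold change with ERKi was -0.76 (SE 0.073, adjusted p = 8.09e-08) for SLC25A33 and 0.44 (SE 0.067, adjusted p = 1.75e-05) for SLC25A36. With Comb, SLC25A33 had -0.41 (adjusted p = 0.000105) and SLC25A36 0.17 (adjusted p = 0.0387); the latter call was lost in 10 alternative settings, DMSO replicate 1 left out among them.

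The promoter windows of this pair are printed because they hold the same 2 motifs while the levels moved apart, with that of SLC25A13, which fell, for comparison. Capitals mark the E-box CACGTG and the cyclic AMP response element TGACGTCA, letters are 5′ to 3′ on the strand of the gene, and sequence and coordinates are from RefSeq on GRCh38.p14.
SLC25A33, chr1:9539405-9539454, plus strand, 60 to 11 bases before the start: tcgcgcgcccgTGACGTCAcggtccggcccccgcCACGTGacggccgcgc
SLC25A36, chr3:140941681-140941735, plus strand, 155 to 101 bases before the start: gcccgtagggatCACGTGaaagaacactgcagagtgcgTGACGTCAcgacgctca
SLC25A13, chr7:96322229-96322268, minus strand, 170 to 131 bases before the start: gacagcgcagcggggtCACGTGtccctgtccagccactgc
The windows searched ran from 250 bases before to 50 after the start, on both strands. They matched 33 of the 39 members, with 43 windows because some genes have several starts. CACGTG was in 7 of the 43 windows (16.3%) and in 7.26% of all 35116 windows. TGACGTCA was in 3 windows (6.98%), those of SLC25A25, SLC25A33 and SLC25A36, and in 1.85% of all. The GC box GGGCGG was in 29 windows (67.4%, beside 45.0% of all), the ETS motif CCGGAAGT in 4 (9.30%, beside 4.14%), TGATGNAA in 1, of SLC25A11 (2.33%, beside 3.62%), and the NRF1 motif in 0 (beside 1.24%). These motifs do not overlap one another in the printed stretches. A match is a description of the letters in the window, and any part of these motifs in the changes was not tested. TGACGTCA lies before CACGTG in SLC25A33 and after it in SLC25A36, and the pair was picked with its changes known.

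SLC25A32, a folate and FAD carrier of one-carbon metabolism, was at 96.5, 112 and 114 CPM in DMSO and 117, 115 and 116 with ABT199. Its libraries held 60.6, 57.6 and 56.4 CPM with ERKi and 72.1, 70.8 and 75.1 with Comb, below all others. The log2 change was -0.89 (SE 0.061, adjusted p = 9.99e-10) with ERKi and -0.57 (SE 0.06, adjusted p = 3.82e-07) with Comb. The gene model DCAF13 overlaps 80.8% of the annotated SLC25A32 exon bases and had log2 fold changes of -0.94 and -0.64 in the same comparisons, so counts of the 2 genes cannot be fully told apart.

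Of the 4 iron and glutathione carriers, 1 rose and 2 fell with ERKi, whereas 3 rose and 1 fell with Comb. These counts stand beside 34.5% of all genes higher and 35.2% lower with ERKi, and 30.4% and 33.4% with Comb. SLC25A37 (mitoferrin-1), which delivers iron for haem and iron-sulphur clusters, was at 74.7, 82.2 and 79.6 CPM in DMSO and 72.6, 75.5 and 76.5 with ABT199. It reached 109, 102 and 111 CPM with ERKi and 119.9, 116 and 114 with Comb, above every library without the ERK inhibitor. The log2 change was 0.44 (SE 0.051, adjusted p = 7.45e-07) with ERKi and 0.56 (SE 0.051, adjusted p = 5.85e-08) with Comb. SLC25A28 (mitoferrin-2), the more widely expressed form, was not called with ERKi, at 0.10 (adjusted p = 0.394), but rose with Comb, by 0.42 (adjusted p = 0.00193). Erythroid markers were at or near 0 in all groups, as given above.

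SLC25A39 imports glutathione, the main thiol antioxidant, and SLC25A40 is its close relative. SLC25A39 was at 105, 78.5 and 77.7 CPM in DMSO, where replicate 1 lay far above the other 2, and 83.9, 82.5 and 80.6 with ABT199. It was at 66.7, 68.4 and 64.4 CPM with ERKi and 98.9, 106 and 101 with Comb, so ERKi was the lowest group, and Comb overlapped DMSO only through replicate 1. SLC25A40 was at 70.8, 85.9 and 91.8 CPM in DMSO, 87.4, 80.2 and 88.5 with ABT199, 60.5, 56.1 and 55.9 with ERKi and 47.8, 46.1 and 46.6 with Comb, and was lowest with Comb. SLC25A39 had a log2 change of -0.39 (SE 0.086, adjusted p = 0.000729) with ERKi and 0.23 (SE 0.085, adjusted p = 0.0257) with Comb. SLC25A40 fell, at -0.53 (SE 0.077, adjusted p = 1.09e-05) with ERKi and -0.82 (SE 0.078, adjusted p = 9.64e-08) with Comb, the furthest fall of any member with Comb. The rise of SLC25A39 with Comb was lost without DMSO replicate 2 (0.16, adjusted p = 0.135), DMSO replicate 3 (0.15, adjusted p = 0.147), Comb replicate 2 (adjusted p = 0.0889) or Comb replicate 3 (adjusted p = 0.057).

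**Figure D4:**
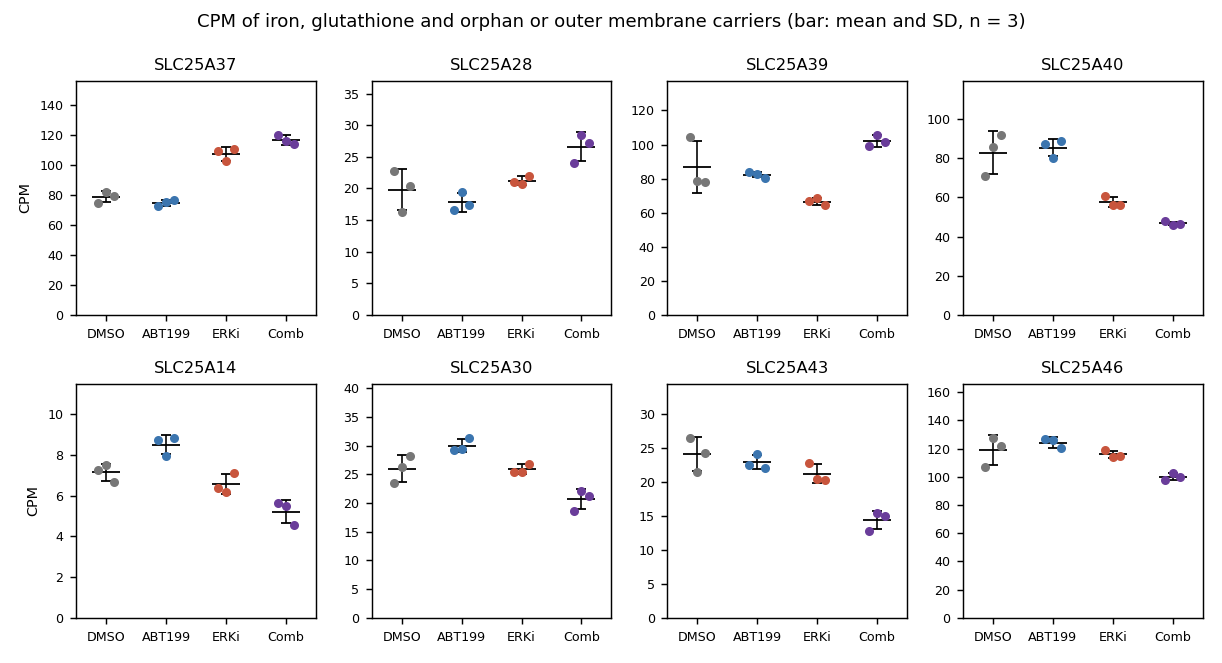
CPM in each library for the iron, glutathione and other carrier genes, 1 panel per gene with its own axis from 0; points are libraries and bars the mean and SD of 3. SLC25A37 is higher with ERKi and Comb, SLC25A39 is lowest with ERKi, and SLC25A40 and SLC25A43 are lowest with Comb.

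The 7 relatives of the uncoupling proteins, outer membrane members and carriers with no settled substrate were all uncalled with ERKi, where 69.7% of all genes were called. With Comb 1 rose and 4 fell, beside 30.4% of all genes higher and 33.4% lower. With ERKi, SLC25A35 and SLC25A43 were each called in 2 alternatives and SLC25A46 in 1. SLC25A43 was at 26.4, 21.5 and 24.3 CPM in DMSO, 22.5, 24.04 and 22.1 with ABT199, 22.7, 20.4 and 20.3 with ERKi and 12.8, 15.3 and 15.03 with Comb, and every Comb library was below every other. Its log2 change was -0.19 (adjusted p = 0.0703) with ERKi and -0.74 (SE 0.092, adjusted p = 2.35e-06) with Comb. SLC25A14 and SLC25A30, which resemble the uncoupling proteins, had -0.12 and 0.00 with ERKi and fell, at -0.45 and -0.33 with Comb. SLC25A46, an outer membrane member that takes part in mitochondrial shape, fell, at -0.25 with Comb, and SLC25A35 rose by 0.45. SLC25A34 and SLC25A53 were called in none of the comparisons.

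The combination was also set against each agent alone. Between Comb and ABT199, which asks what the ERK inhibitor adds to venetoclax, 33 of 39 members were called, 13 higher and 20 lower, where 66.2% of all genes were called, 32.1% higher and 34.2% lower. The member median was -0.24, beside 0 over all genes. Among called members with a mean CPM of at least 5, the largest rises were those of SLC25A20 at 1.34, SLC25A29 at 1.01, SLC25A37 at 0.64, SLC25A28 at 0.58, SLC25A16 at 0.50 and SLC25A42 at 0.47. Below that level, SLC25A6 rose by 0.69 and SLC25A45 by 0.59. The largest falls among them were those of SLC25A40 at -0.87, SLC25A17 at -0.84, SLC25A14 at -0.71, SLC25A32 at -0.68, SLC25A43 at -0.67 and SLC25A22 at -0.65.

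Between Comb and ERKi, which asks what venetoclax adds to the ERK inhibitor, 25 of 39 members were called, 17 higher and 8 lower. Of all genes 50.9% were called, 26.5% higher and 24.3% lower. The median log2 fold change of the members was 0.14, beside 0 for all genes. With library totals in place of TMM scaling, 11 members were called higher, and the median of all genes itself shifted to -0.13. SLC25A10 was 99.3% higher with Comb than with ERKi, a log2 change of 1.0 (SE 0.069, adjusted p = 9.71e-09). SLC25A22 was higher by 0.69 (SE 0.11, adjusted p = 6.95e-05), SLC25A39 by 0.62 (SE 0.086, adjusted p = 1.89e-05), SLC25A1 by 0.50 (SE 0.063, adjusted p = 7.5e-06), SLC25A5 by 0.45 (SE 0.044, adjusted p = 5.27e-07) and SLC25A11 by 0.42 (SE 0.068, adjusted p = 7.79e-05). Among called members with a mean CPM of at least 5, the largest falls from ERKi to Comb were those of SLC25A24 at -0.57 (SE 0.062, adjusted p = 1.33e-06) and SLC25A43 at -0.56 (SE 0.093, adjusted p = 0.000111), followed by SLC25A14, SLC25A16, SLC25A30 and SLC25A40 at -0.33, -0.33, -0.33 and -0.30. The SLC25A14 call was lost in several alternatives, the replicate block among them (adjusted p = 0.0527).

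Whether venetoclax acted differently with and without the ERK inhibitor was tested as an interaction, the change from ERKi to Comb minus the change from DMSO to ABT199. It was called for 18 of 39 members, 11 higher and 7 lower, where 39.2% of all genes were called, 21.3% higher and 18.0% lower. Among called members the largest positive values were those of SLC25A10 at 0.94 (SE 0.093, adjusted p = 1.68e-06), SLC25A39 at 0.70 (SE 0.12, adjusted p = 0.000311) and SLC25A22 at 0.64 (SE 0.15, adjusted p = 0.0027). The citrate carrier SLC25A1 had 0.48 (adjusted p = 0.000459), SLC25A11 0.46 (adjusted p = 0.00102) and the ADP/ATP carrier SLC25A5 0.44 (adjusted p = 4.88e-05). All 3 di- and tricarboxylate carriers were among the positive calls. SLC25A18, at -1.0 (adjusted p = 0.18), and SLC25A6, at 0.68 (adjusted p = 0.0686), had large values that missed the threshold. Negative calls were led by SLC25A24 at -0.76 (SE 0.087, adjusted p = 7.66e-06), SLC25A14 at -0.58 (adjusted p = 0.014), SLC25A30 at -0.54 (adjusted p = 0.00127) and SLC25A43 at -0.48 (adjusted p = 0.0071). For the acylcarnitine carrier SLC25A20 the value was 0.30 (adjusted p = 0.0269), a call lost in 7 of 19 alternatives, with adjusted p up to 0.133 (library totals) and without any 1 of the Comb libraries. Several ERKi changes did not carry an interaction past the threshold: SLC25A29 had 0.05 (adjusted p = 0.826), SLC25A17 0.01 (adjusted p = 0.95) and SLC25A3 0.00 (adjusted p = 0.971), with 95% intervals of -0.27 to 0.36, -0.28 to 0.31 and -0.13 to 0.13.

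Related carriers were also compared with each other through the log2 ratio of their counts in the same library, which does not depend on library scaling. The ratio of SLC25A33 to SLC25A36 was -1.97 ± 0.20 in DMSO, -3.17 ± 0.16 with ERKi and -2.55 ± 0.07 with Comb (mean ± SD, n = 3 each). That of the ornithine carrier SLC25A15 to SLC25A29 was 1.26 ± 0.31, -0.37 ± 0.12 and -0.01 ± 0.11 in the same groups. Counts are not corrected for length here. Per kilobase of annotated exon, SLC25A15 was at 15.6 CPM against 1.61 for SLC25A29 in DMSO, and at 9.90 against 3.15 with ERKi. Those values use exons joined over all annotated transcripts, 1837 and 7451 bases, so which gene was more abundant is not settled. The shift of a ratio, not its sign, is what can be read. SLC25A39 to SLC25A40 gave 0.06 ± 0.44, 0.21 ± 0.07 and 1.12 ± 0.07, with the shift between ERKi and Comb. SLC25A24 to SLC25A23 gave 0.34 ± 0.34, 1.13 ± 0.02 and 0.52 ± 0.09. SLC25A13 to SLC25A12 gave 0.90 ± 0.11, 0.40 ± 0.09 and 0.48 ± 0.09. With 3 libraries against 3, the smallest p of an exact two-sided permutation test is 0.1. Of 16 such tests over 8 pairs none had an adjusted p below 0.145, so none could pass the threshold in this design, and the ratios are read by whether groups overlap. For SLC25A33 to SLC25A36 and SLC25A15 to SLC25A29 the ERKi libraries did not overlap the DMSO libraries, nor the Comb libraries. The same held for SLC25A24 to SLC25A23 and for SLC25A5 to SLC25A6, the latter with the uncertain counts of SLC25A6. Each of the other pairs overlapped between ERKi and DMSO, between Comb and ERKi, or in both.

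**Figure D5:**
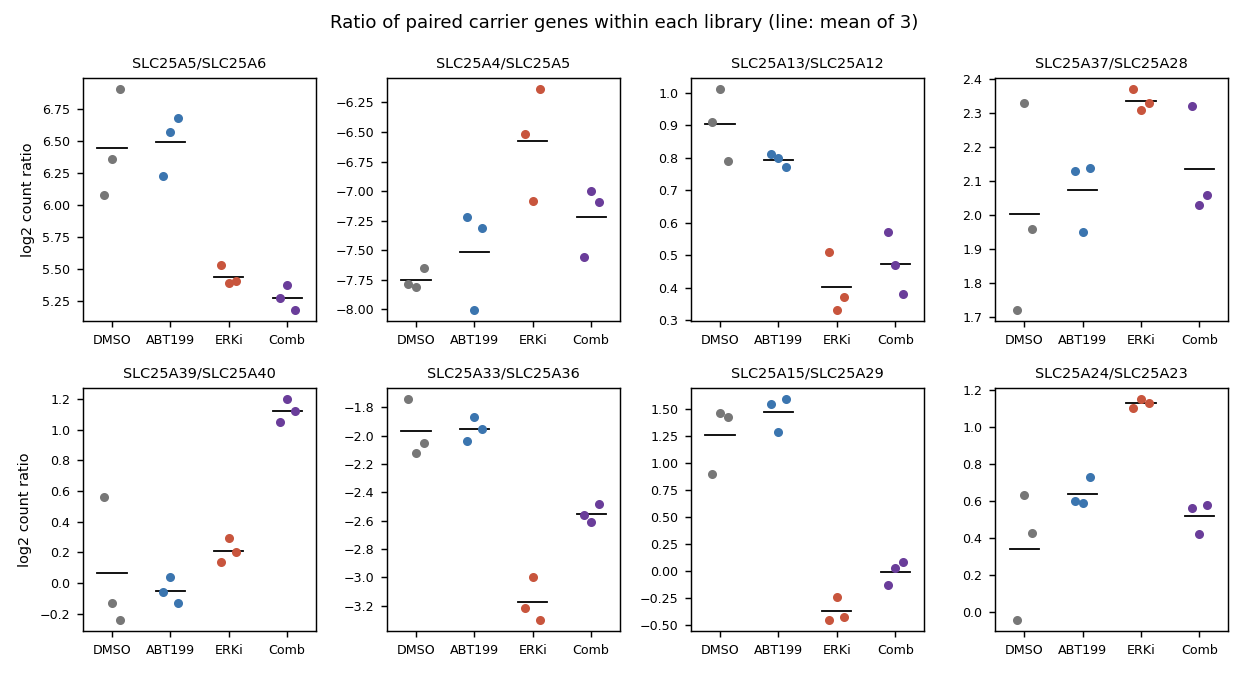
Log2 ratio of the counts of 2 related carrier genes in each library, 1 panel per pair. Points are libraries and lines the mean of 3. The SLC25A15 to SLC25A29 ratio falls from 1.26 in DMSO to -0.37 with ERKi, and the SLC25A39 to SLC25A40 ratio rises to 1.12 with Comb.

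Other genes that move substrates across mitochondrial membranes were read from lists of companions; the counts below stand beside 34.5% of all genes higher and 35.2% lower with ERKi, and 30.4% and 33.4% with Comb. Of 4 tested carriers under other names, 2 fell with ERKi. MTCH2, an outer membrane insertase and receptor for the death protein BID, was at -1.04 (adjusted p = 1.13e-11). UCP2, which exchanges metabolites across the inner membrane, was at -0.61 (adjusted p = 5.65e-07). Of 17 tested inner membrane transporters outside the family, 4 rose and 10 fell, among them the serine carrier SFXN1 at -1.22 (adjusted p = 2.01e-12), SFXN2 at -1.65 (adjusted p = 2.76e-12) and the ion exchanger LETM1 at -0.77 (adjusted p = 4.55e-10). Of those that rose, MCUB, a subunit that dampens the calcium uniporter, was at 0.94 (adjusted p = 1.25e-08) and the sodium-calcium exchanger SLC8B1 at 0.76 (adjusted p = 6.8e-07); these 2 were picked after their values were seen. All 3 VDAC channels of the outer membrane fell, VDAC1 at -1.46 (adjusted p = 1.16e-14), VDAC3 at -0.64 (adjusted p = 1.79e-09) and VDAC2 at -0.53 (adjusted p = 2.03e-07). Of 7 listed genes of the TIM22 insertion pathway 6 were tested, and TIMM22 itself was not among them. Of these 6 genes, 4 fell and 0 rose, led by the chaperone TIMM10 at -1.18 (adjusted p = 2.09e-08), the receptor TOMM70 at -0.48 (adjusted p = 1.43e-07) and AGK at -0.86 (adjusted p = 2.36e-05). With Comb the counts of higher and lower calls were 1 and 1, 6 and 8, 0 and 3, and 0 and 3 for these lists in the same order. With ABT199 0 genes of these lists were called. The list medians with ERKi were -0.44, -0.28, -0.64 and -0.33, beside 0.01 over all genes.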

How the data were processed

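The authors deposited a table of raw counts per gene for 12 libraries. The submitters' processing notes name HISAT2, HTSeq, DESeq2 and the build hg38. Tool versions and the annotation are not given in these sources, nor is any use of strand in counting. The members and gene lists were chosen with earlier results of these data known. The named members were, per comparison, the called members of largest change and a set of always named carriers. The largest changes were limited to 6 each way, a mean CPM of at least 5 and groups without overlap. Of each companion list up to 3 called genes were named, by adjusted p. MCUB and SLC8B1 were named outside this rule, after their values were seen.

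Counts were fitted with edgeR 4.0.16 in R 4.3.3 (filterByExpr with a minimum count of 10 and a total of 15, TMM, 1 coefficient for each of 4 groups, 8 residual degrees of freedom, quasi-likelihood F test, Benjamini-Hochberg over 15173 genes, called under 0.05). The standard error is the log2 fold change divided by the root of F, and fold changes use a prior count of 0.125. On simulated counts for ERKi against DMSO (14503 genes), 86.6%, 92.5% and 100% of genes changed 1.5-, 2- and 4-fold were recovered, with 6 false calls. Only 67, 67 and 66 genes were changed at these folds, and every gene had the same simulated spread. The simulation therefore did not cover a comparison in which 69.7% of genes were called, nor a library apart such as DMSO replicate 1. Exon lengths came from GENCODE annotation, with the exons of all transcripts of a gene joined, and promoters and positions from RefSeq GRCh38.p14. Alternatives were RLE scaling, DESeq2 1.42.0, limma-voom 3.58.1, other filters, a replicate block, only the libraries compared, each library left out and, chosen after seeing the data, library totals without TMM. Protein sequences were not used here. 1 member enters the counts but is not reported here by name or plotted.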

Additional observations from a re-analysis of the deposited data

Results flagged for a closer look

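For 17 of the carriers the effect of venetoclax differed between cells with and without the ERK inhibitor, by the test of the interaction in edgeR's quasi-likelihood fit at an adjusted p under 0.05. They are those reported by name among the 18 of 39 members called. Of all genes tested, 39.2% were called, 21.3% higher and 18.0% lower. Values are log2 differences, positive where the change from ERKi to Comb was the higher one. They were positive for SLC25A10 (0.94), SLC25A39 (0.70), SLC25A22 (0.64), SLC25A1 (0.48), SLC25A28 (0.47), SLC25A11 (0.46), SLC25A5 (0.44), SLC25A44 (0.42), SLC25A20 (0.30) and SLC25A37 (0.19). They were negative for SLC25A24 (-0.76), SLC25A14 (-0.58), SLC25A30 (-0.54), SLC25A43 (-0.48), SLC25A36 (-0.34), SLC25A40 (-0.34) and SLC25A46 (-0.28). Of 19 alternatives, the call of SLC25A37 was lost in 13, the replicate block among them (adjusted p = 0.0609), that of SLC25A20 in 7, SLC25A28 in 3, SLC25A40 in 2 and SLC25A14 in 1. SLC25A37 and SLC25A28 carry iron, and their adjusted p were 0.0433 and 0.0181. The groups hold 3 libraries each, too few for a search for outlying libraries by gap.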

How the results depend on the processing

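Over every alternative in which the member was tested, 24 of 26 member calls were kept for ERKi against DMSO, 26 of 31 for Comb against DMSO, 31 of 33 for Comb against ABT199, 17 of 25 for Comb against ERKi and 13 of 18 for the interaction, and no called member changed sign. With library totals only, members higher with Comb than with ERKi numbered 11, and the summed member level was 2435.2 CPM in DMSO, 2440.7 in ABT199, 2092.5 in ERKi and 2056.3 in Comb; the median of all genes moved to 0.10 for ERKi against DMSO, -0.13 for Comb against ERKi and -0.10 for the interaction. With the replicate block the calls were 9 higher and 17 lower for ERKi against DMSO, 16 and 7 for Comb against ERKi and 10 and 7 for the interaction. Of 18 same-number pairs 0 had a correlation of deviations over 0.1 (range -0.07 to 0.09). The best partner, out of 3 candidates, had the same number in 9. This check cannot exclude a weak effect shared by libraries of the same number. Leaving out 1 library at a time gave 8 to 10 higher and 16 to 18 lower for ERKi against DMSO, 8 to 13 and 19 for Comb against DMSO, 12 to 14 and 19 to 20 for Comb against ABT199, 12 to 18 and 7 to 8 for Comb against ERKi, 8 to 14 and 6 to 8 for the interaction, and 0 for ABT199 against DMSO. The SLC25A39 to SLC25A40 ratio, ERKi minus DMSO, was 0.15 with all libraries and -0.01 (without DMSO replicate 3) to 0.40 (without DMSO replicate 1) with 1 left out. Members with few counts (SLC25A4, SLC25A18, SLC25A34, SLC25A53) had the widest intervals.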

Other observations

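Transcripts named after carriers but outside the family rule were present at low level. SLC25A25-AS1, the antisense partner of SLC25A25, had 3.05 CPM in DMSO, 2.08 with ABT199, 4.45 with ERKi and 4.17 with Comb. Its log2 fold change with ERKi was 0.55 (adjusted p = 0.00535), opposite in sign to the -0.86 of SLC25A25 itself. The pseudogene SLC25A24P1 had 5.55, 5.11, 6.63 and 5.10 CPM in the same groups, and SLC25A5-AS1 1.43, 1.55, 1.10 and 1.31 CPM.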
